A study of Salmo salar with 6 samples.

Results

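Oxidative phosphorylation was followed through 64 genes of the Atlantic salmon (*Salmo salar*) head kidney (HK), out of 8072 genes with a symbol on the array. The members were the genes whose symbol begins with nduf, sdha to sdhd, sdhaf, uqcr, uqcc, cox and a digit, atp5, cycs or cyc1, found through the RefSeq accession in the name of each probe. They comprised 16 subunits of complex I, 3 of complex II, 3 of complex III, 10 of complex IV, 13 genes of ATP synthase and 19 assembly factors. No probe carried the symbol of cytochrome c itself, and 8 matching symbols of the gene table (*atp5f1*, *atp5mf*, *cox14*, *ndufaf8*, *ndufs7*, *sdha*, *sdhaf3* and *uqcc4*) had no probe. Gene copies listed only under a locus number are not found by this rule, so each complex was seen in part.

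Oxidative phosphorylation takes place in the inner mitochondrial membrane. Complexes I and II pass electrons from NADH and succinate to ubiquinone, complex III hands them to cytochrome c, and complex IV uses them to reduce oxygen to water. Complexes I, III and IV pump protons, and ATP synthase lets the protons flow back to make ATP, while assembly factors insert the hemes, copper, flavin and iron-sulfur clusters and put the subunits together without staying in the finished enzyme. The HK of a teleost is a blood-forming, lymphoid and endocrine organ, and the nucleated red cells, leukocytes and steroid-producing interrenal cells it holds all contain mitochondria. The roles given here for single genes are those known from mammals and yeast.

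Salmon sampled as juveniles, unvaccinated and bathed in hydrogen peroxide and formaldehyde after transport, received for 133 days a basal diet (control) or the same diet with 0.15% AQUOLIVE®, an olive fruit extract whose bioactive compounds make up 10% of it (polyphenols 2% and triterpenic acid 8.0%). RNA of 18 fish per diet was combined into 3 pools of 6 fish, each fish from a different one of the 6 tanks of its diet, and each pool was hybridized to a one-color Agilent array. The pool was the replicate (n = 3 per diet), every pool drew on the same 6 tanks of its diet, and the p-values measure the spread between pools rather than between tanks. In pooled tissue, fewer cells of a type and less RNA per cell cannot be told apart.

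Array quality differed between pools. The share of probes well above background ranged from 42.5% to 60.9% on the control arrays and from 54.1% to 76.0% on the AQUOLIVE® arrays, and control pool 3 had the lowest share. Each array lay on a slide of its own, so slide and pool cannot be told apart. The slides of the 2 diets were therefore different ones, and an effect of the slides cannot be separated from diet. Of the 65 probes of the members (*atp5f1c* has 2), 63 were well above background on all 6 arrays, and the probes of *cox4i1l* and *sdhaf1* on 3 control and 2 AQUOLIVE® arrays. All 64 genes had a value in every pool, and all were kept.

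The comparison of the diets asked whether the transcripts of the respiratory chain differed in the HK of fish fed the extract. Most members lay slightly higher with AQUOLIVE®, without any of them standing out against the whole array. The mean log2 fold change (log2 FC, AQUOLIVE® over control) was above 0 for 46 genes (71.9%) and below 0 for 18, whereas 48.6% of the 25826 kept probes were above 0. The median log2 FC was 0.15 for the members, with quartiles at -0.07 and 0.50, and -0.02 for all kept probes, with quartiles at -0.44 and 0.44. No member passed limma with Benjamini-Hochberg adjustment over all kept probes. The smallest adjusted p was 0.14, and 4 of all kept probes (0.0155%) were called.

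Other counts set the members beside the array. At an unadjusted limma p under 0.05, 9 members were past the threshold (14.1%), against 18.1% of all kept probes. Of these, 8 were higher (12.5%, against 9.56%) and 1 was lower (1.56%, against 8.58%). The threshold of the study's methods, an unpaired test at an unadjusted p under 0.05, was combined with an absolute log2 FC of at least 0.8. It was passed by 2 members in the higher direction (3.12%), *cox16* and *sdhaf2*, against 5.22% of all kept probes, and by 0 in the lower direction, against 3.83%. Without the minimum, 11 members had such a p (17.2%, against 15.8%), and 0 after Benjamini-Hochberg adjustment. In 19 members (29.7%) all 3 AQUOLIVE® pools lay above all 3 control pools, against 14.7% of the probes measured on every array, and in 4 members (6.25%) they lay below, against 15%. The shares called in either direction were therefore near or below those of the array, and the largest gaps to it were in the share that separated upwards and in the lower shares on the downward side. For a single gene, 3 pools against 3 allow no exact two-sided permutation p below 0.1.

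**Figure D1:**
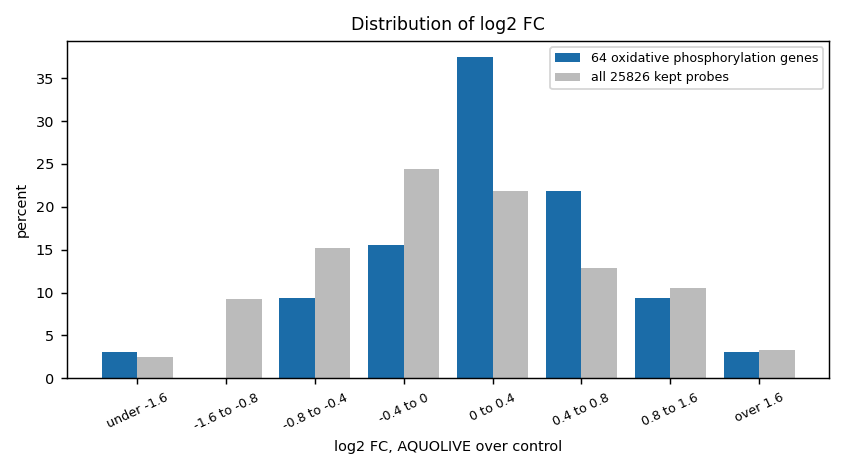
Percent of genes or probes (vertical axis) by class of log2 FC, AQUOLIVE® over control (horizontal axis), for the 64 oxidative phosphorylation genes (blue) and all 25826 kept probes (grey). The members are gathered between 0 and 0.8, where 37.5% and 21.9% of them lie in the 2 classes against 21.9% and 12.9% of all probes, and none lies between -1.6 and -0.8, where 9.26% of all probes do.

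The position of the members differed from pool to pool. Taking each gene relative to its own mean over the 6 pools, the median of the 64 members came to 0.06, -0.13 and -0.24 (log2) for control pools 1, 2 and 3. For the AQUOLIVE® pools it came to 0.11, 0.07 and 0.15 in the same order. Control pool 3 was the lowest of all pools and control pool 1 lay beside the AQUOLIVE® pools. The spread was wider in the control pools, with a median SD of 0.32 against 0.13 in the AQUOLIVE® pools, and the control SD was the larger one in 54 of 64 members (84.4%) and in 71.1% of all probes.

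**Figure D2:**
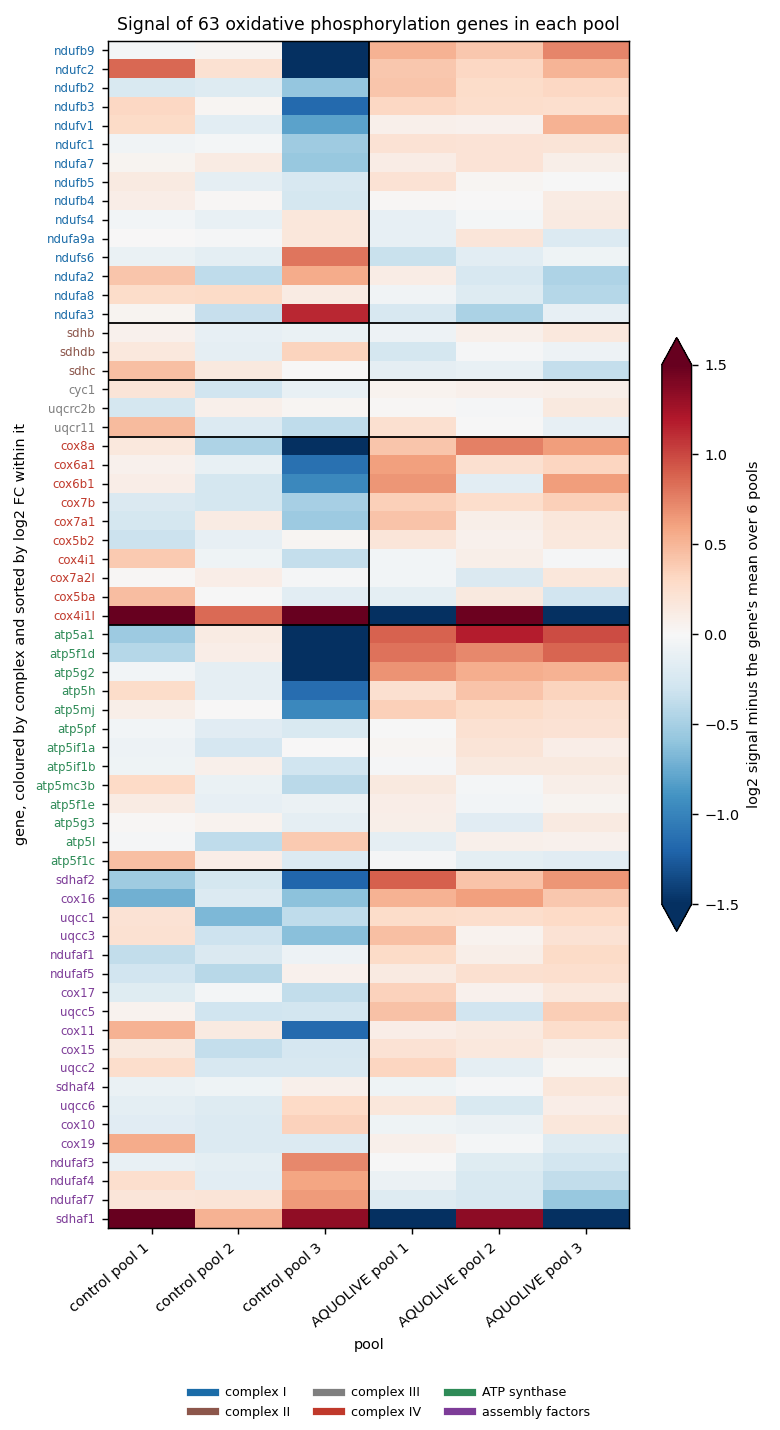
Normalized log2 signal of each of 63 genes minus its own mean over the 6 pools (color scale, log2, ending at -1.5 and 1.5), with genes in rows by complex and the 3 control and 3 AQUOLIVE® pools in columns. Control pool 3 is the darkest blue column for 10 genes that lie over 1 below both other control pools, and *cox4i1l* and *sdhaf1* are dark blue in AQUOLIVE® pools 1 and 3 only.

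Complex I, the NADH dehydrogenase that feeds most electrons into the chain, had 9 of 16 subunits higher and 7 lower, and its median log2 FC was 0.13. The subunit with the highest log2 FC was *ndufb9*, an accessory subunit of the membrane arm. Its normalized log2 signal read 12.58, 12.64 and 10.94 for the control diet, in the order of pools 1, 2 and 3 kept throughout, and 13.13, 13.01 and 13.33 for AQUOLIVE®. All AQUOLIVE® pools lay above all control pools, and control pool 3 lay far below the rest. The log2 FC was 1.10 ± 0.49 (SE, n = 3 per diet; limma adjusted p = 0.292), and 0.52 when control pool 3 was left out. *Ndufb2*, the brightest complex I probe and also a membrane arm subunit, had 12.86, 12.90 and 12.51 in the control pools and 13.50, 13.37 and 13.41 in the AQUOLIVE® pools. Here the diets were apart with little spread on either side, and the log2 FC of 0.67 ± 0.21 (SE; limma adjusted p = 0.200) was 0.53 without control pool 3.

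At the lower end of complex I stood *ndufa3*, an accessory subunit, with 11.78, 11.38 and 12.87 in the control pools and 11.50, 11.26 and 11.61 in the AQUOLIVE® pools. The diets overlapped, and control pool 3 was this time the highest pool. Its log2 FC was -0.55 ± 0.41 (SE; limma adjusted p = 0.471) and -0.12 without control pool 3. *Ndufa8*, another accessory subunit, was chosen after its values were seen and separated downwards. It had 10.57, 10.57 and 10.41 against 10.24, 10.10 and 9.86, a log2 FC of -0.45 ± 0.21 (SE; limma adjusted p = 0.306). This did not rest on control pool 3, since the log2 FC without it was -0.49.

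Sorted by the letter of their symbol, a grouping made after the values were seen and therefore not tested, the complex I subunits lay on different sides of 0. All 7 genes of the ndufb and ndufc series, most of which sit in the proton-pumping membrane arm, had a log2 FC above 0, with a median of 0.55. Of the 9 genes of the ndufa, ndufs and ndufv series, which include the subunits of the NADH-oxidizing peripheral arm, 2 were above 0 (*ndufv1*, the NADH-binding flavoprotein, at 0.45 and *ndufa7* at 0.27, or 0.16 and 0.06 without control pool 3) and the median was -0.37. Without control pool 3 these medians came to 0.07, with 5 of 7 above 0, and to -0.06, with 3 of 9 above 0. Most of the gap between the series was therefore absent without that pool, in which *ndufc2* read 9.68 against 12.84 and 12.21 in the other control pools and 12.40, 12.30 and 12.49 with AQUOLIVE®. The log2 FC of *ndufc2* was 0.82 with all pools and -0.16 without control pool 3, so its direction turned. In every other setting run, all 7 genes of the first series stayed above 0. Of the 9 others, 2 to 4 did, except for the unscaled deposited values, where the median of all kept probes was itself 0.98 and 3 of the 9 lay above it.

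Complex II, the succinate dehydrogenase shared with the citric acid cycle, was represented by 3 subunits. *Sdhb*, which carries the iron-sulfur clusters, had 12.85, 12.66 and 12.69 in the control pools and 12.71, 12.86 and 12.95 with AQUOLIVE®. The diets overlapped, with a log2 FC of 0.11 ± 0.20 (SE; 95% interval -0.37 to 0.58; limma adjusted p = 0.775). The membrane anchor *sdhc* was at 11.37, 11.07 and 10.93 in the control pools and at 10.79, 10.81 and 10.56 with AQUOLIVE®. Its diets were apart, lower with AQUOLIVE®, at -0.40 ± 0.22 (SE; 95% interval -0.93 to 0.13; limma adjusted p = 0.363). The other anchor, *sdhdb*, had a log2 FC of -0.24 with overlapping diets.

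Complex III, the cytochrome bc1 complex, had the log2 FC closest to 0. All 3 subunits on the array had a log2 FC just above 0 and none separated. *Cyc1*, the cytochrome c1 that docks cytochrome c, had 12.26, 11.77 and 11.96 in the control pools and 12.12, 12.14 and 12.16 with AQUOLIVE®, where the pools spanned 0.03 (log2). Its log2 FC was 0.14 ± 0.22 (SE; 95% interval -0.38 to 0.66; limma adjusted p = 0.722). The small subunit *uqcr11* had 9.73, 9.05 and 8.88 against 9.50, 9.25 and 9.13, a log2 FC of 0.07 ± 0.29 (SE; limma adjusted p = 0.899) that was -0.09 without control pool 3. *Uqcrc2b*, a core subunit, stood at 0.10.

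**Figure D3:**
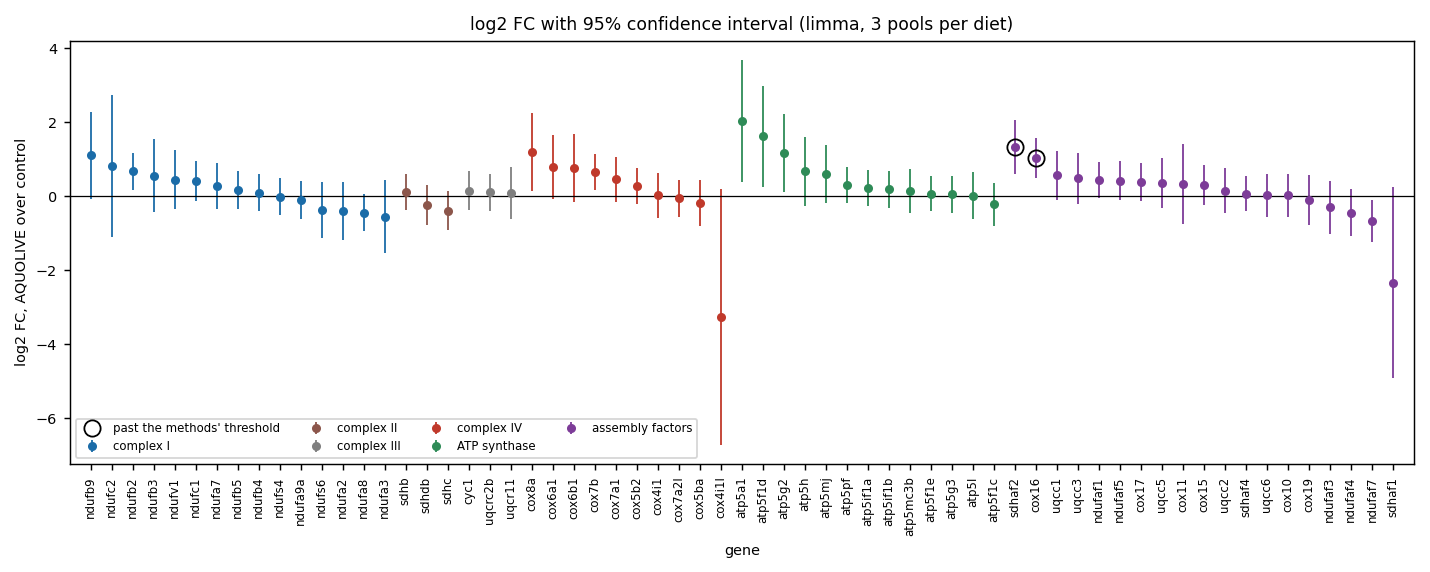
log2 FC of 63 genes, AQUOLIVE® over control (vertical axis), by gene and complex (horizontal axis); points are limma estimates from 3 pools per diet and lines their 95% confidence intervals, not adjusted for the number of genes. Open circles mark *sdhaf2* and *cox16*, past the threshold of the methods; the intervals of *cox4i1l* (-6.72 to 0.20) and *sdhaf1* (-4.91 to 0.24) are the widest.

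Complex IV, cytochrome c oxidase, had 7 of 10 subunits higher and 3 lower. Its median log2 FC was 0.37. Apart upwards were 4 subunits (40%), against 14.7% of the probes measured on every array, and apart downwards 0, against 15%. *Cox8a*, a small subunit of the membrane part, had 13.24, 12.62 and 11.58 in the control pools and 13.50, 13.84 and 13.70 with AQUOLIVE®. The diets did not overlap, but control pool 1 came close and control pool 3 lay lowest. The log2 FC was 1.20 ± 0.43 (SE; limma adjusted p = 0.238), and 0.72 without control pool 3. *Cox7b*, another small accessory subunit, chosen after its values were seen, had 12.69, 12.65 and 12.41 against 13.26, 13.18 and 13.27. These were among the tightest values of the complex, and the log2 FC of 0.65 ± 0.20 (SE; limma adjusted p = 0.191) was 0.56 without control pool 3. *Cox6a1* at 0.78 and *cox5b2* at 0.28 were also apart upwards, and *cox6b1* at 0.76 and *cox7a1* at 0.46 overlapped. Without control pool 3, *cox6a1* stood at 0.40, *cox6b1* at 0.45 and *cox7a1* at 0.29. *Cox5b2* was then at 0.36, but at -0.19 with the deposited values median-centered.

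The copies of subunit IV, the regulatory subunit that binds adenine nucleotides, differed most of all copies compared. *Cox4i1*, the brightest complex IV probe, had 14.52, 14.07 and 13.77 in the control pools and 14.08, 14.22 and 14.11 with AQUOLIVE®, a log2 FC of 0.02 ± 0.25 (SE; limma adjusted p = 0.973). *Cox4i1l*, its like-named copy, had 10.48, 9.59 and 11.06 in the control pools and 6.89, 10.21 and 4.24 with AQUOLIVE®. AQUOLIVE® pools 1 and 3 lay below every control pool, AQUOLIVE® pool 2 lay among them, and pool 3 was not well above background. The log2 FC of -3.26 ± 1.43 (SE; limma adjusted p = 0.291) and the range of 5.97 (log2) between the AQUOLIVE® pools both include this reading of pool 3, so neither is an exact size. Without AQUOLIVE® pool 3 the log2 FC was -1.82, with normexp background correction it was -1.98, and without AQUOLIVE® pool 2 it was -4.81 and past the threshold of the methods. With all pools the copies differed by 3.28 in log2 FC, with the same limit.

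ATP synthase had 12 of 13 genes above 0 and a median log2 FC of 0.22. Its genes were apart upwards in 6 cases (46.2%), against 14.7% of the probes measured on every array, and downwards in 0, against 15%. The count above 0 differed between settings. It was 9 of 13 under 75th percentile scaling, 12 of 13 with quantile normalization and with normexp, and 10 of 13 without control pool 3. With the deposited values median-centered, which differ in the signal used as well as in the scaling, it was 7 of 13. *Atp5a1*, the alpha subunit of the catalytic head, had 12.20, 12.86 and 10.13 in the control pools and 13.62, 13.92 and 13.71 with AQUOLIVE®. All AQUOLIVE® pools were higher, by a wide margin over control pool 3. The log2 FC of 2.02 ± 0.68 (SE; limma adjusted p = 0.219) was the highest of all members, and without control pool 3 it was 1.18 and past the threshold of the methods. *Atp5f1d*, the delta subunit of the central stalk, chosen after its values were seen, showed a like pattern with 11.07, 11.60 and 9.40 against 12.31, 12.22 and 12.36. Its log2 FC of 1.61 ± 0.56 (SE; limma adjusted p = 0.227) was 0.94 without control pool 3, again past that threshold.

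The c-ring, which turns as protons pass, is encoded by several genes with near-identical mature proteins. Of the 3 on the array, *atp5g2* had 11.29, 11.19 and 9.75 in the control pools and 12.00, 11.87 and 11.85 with AQUOLIVE®, a log2 FC of 1.16 ± 0.44 (SE; limma adjusted p = 0.252). *Atp5g3* had a log2 FC of 0.04 ± 0.20 (SE) and *atp5mc3b* of 0.14 ± 0.25 (SE), with overlapping diets in both. The gap between *atp5g2* and *atp5g3* was 1.12 in log2 FC. Without control pool 3 the genes stood at 0.65, -0.01 and -0.03, so that pool carried part of the gap. Whether a probe also bound transcripts of another copy was not tested.

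In the peripheral stalk, *atp5h* (subunit d), the brightest ATP synthase probe, had 13.89, 13.48 and 12.47 in the control pools and 13.86, 14.04 and 13.94 with AQUOLIVE®. Control pool 1 lay within the AQUOLIVE® values and the log2 FC was 0.66 ± 0.38 (SE; limma adjusted p = 0.383), or 0.23 without control pool 3. *Atp5pf* (factor 6), chosen after its values were seen, had 13.02, 12.89 and 12.83 against 13.05, 13.29 and 13.28, apart upwards by a small margin at 0.30. This turned to -0.13 with the deposited values median-centered. The gamma subunit *atp5f1c*, the rotor axle, was the only ATP synthase gene below 0, with 13.08, 12.74 and 12.43 against 12.62, 12.50 and 12.47. The diets overlapped at -0.22 ± 0.24 (SE; limma adjusted p = 0.618), and the dimmer probe of the gene gave -0.09. The inhibitory factors *atp5if1a* and *atp5if1b*, which stop the enzyme from running in reverse, stood at 0.22 and 0.19, or at 0.27 and 0.08 without control pool 3.

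**Figure D4:**
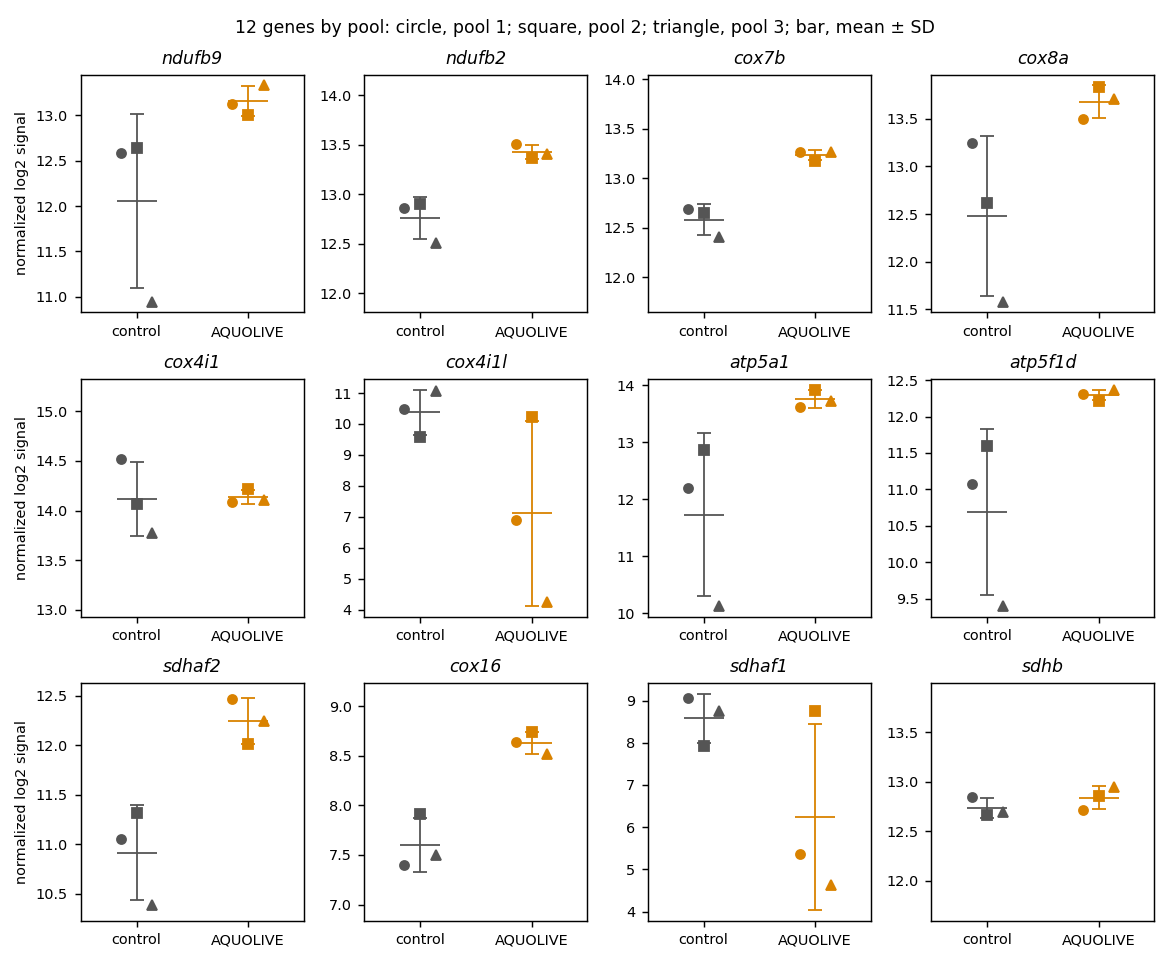
Normalized log2 signal (vertical axis, a scale of its own per gene) of 12 genes in the 3 control (grey) and 3 AQUOLIVE® (orange) pools; circles, squares and triangles are pools 1, 2 and 3, and bars the mean ± SD. The triangle of control pool 3 is far below the other pools for *ndufb9*, *cox8a*, *atp5a1* and *atp5f1d*, while *cox16*, *cox7b* and *ndufb2* are apart with a narrow spread.

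Of the 19 assembly factors, 14 were higher and 5 lower. Their median log2 FC was 0.30. Apart upwards were 6 (31.6%), against 14.7% of the probes measured on every array, and apart downwards 1 (5.26%), against 15%. Both members past the threshold of the methods were of this kind. *Cox16*, which helps to build the copper-containing core of complex IV, had 7.40, 7.91 and 7.50 in the control pools and 8.64, 8.74 and 8.52 with AQUOLIVE®. The lowest AQUOLIVE® pool lay above the highest control pool, and the log2 FC of 1.03 ± 0.23 (SE; 95% interval 0.48 to 1.58; limma adjusted p = 0.140) was 0.97 without control pool 3. *Sdhaf2*, which attaches the flavin to the catalytic subunit of complex II, had 11.05, 11.31 and 10.38 against 12.47, 12.01 and 12.24. It too was apart, at 1.32 ± 0.31 (SE; 95% interval 0.59 to 2.06; limma adjusted p = 0.147), and at 1.04 without control pool 3. Neither passed the adjusted test, and the flavin-carrying subunit itself, *sdha*, had no probe.

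*Sdhaf1*, which delivers iron-sulfur clusters to the subunit encoded by *sdhb*, had 9.06, 7.93 and 8.74 in the control pools and 5.36, 8.75 and 4.62 with AQUOLIVE®. AQUOLIVE® pools 1 and 3 were low and pool 2 lay among the control values, the same pools as for *cox4i1l*, and pool 3 was not well above background. Its log2 FC was -2.34 ± 1.06 (SE; limma adjusted p = 0.301), a size that also includes a reading not well above background. It was -1.89 without AQUOLIVE® pool 1, -1.52 without pool 3, -1.16 with normexp, and -3.59 without pool 2, past the threshold of the methods. Apart from *cox4i1l* and *sdhaf1*, no member had a range over 1 (log2) between the AQUOLIVE® pools. These were 3.12% of the members, against 20.6% of all probes. Well above background on all 6 arrays were 62 of the 64 members, but 16663 of the 25826 kept probes. The part of signal level in this and the other comparisons with all probes was not tested. *Ndufaf7*, a methyltransferase needed to assemble complex I, was chosen after its values were seen. It had 6.19, 6.21 and 6.65 in the control pools and 5.81, 5.77 and 5.44 with AQUOLIVE®. Its diets were apart downwards at -0.67 ± 0.24 (SE; limma adjusted p = 0.232).

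By the complex they serve, the factors of complex III (*uqcc1*, *uqcc2*, *uqcc3*, *uqcc5* and *uqcc6*, which help to make and insert cytochrome b) were all above 0, with a median log2 FC of 0.35 led by *uqcc1* at 0.56. With 75th percentile scaling 4 of the 5 were, as also without control pool 1, control pool 2, AQUOLIVE® pool 1 or AQUOLIVE® pool 3. The gene below 0 was each time *uqcc6*, which stood at 0.02 with all pools. The factors of complex IV were above 0 in 5 of 6 cases, with a median of 0.32. In that set the copper chaperone *cox17* stood at 0.38 and apart, the heme A enzymes *cox15* and *cox10* at 0.30 and 0.02, and *cox11*, which delivers copper, at 0.33, or at -0.16 without control pool 3. Those of complex I were divided, with 2 of 5 above 0 and a median of -0.31, or -0.02 without control pool 3. *Ndufaf1* at 0.44 and *ndufaf5* at 0.42 were apart upwards, and *ndufaf3* at -0.31 and *ndufaf4* at -0.45 overlapped. With the deposited values median-centered, *cox17* turned to -0.16 and *ndufaf1* to -0.04. None of these passed the adjusted limma test.

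Control pool 3 stood apart in many members. It was the lowest of all 6 pools for 30 of the 64 members (46.9%), against 28.7% of all probes, and lay over 1 (log2) below both other control pools for 10 members (15.6%), against 9.5%. These 10 were *atp5a1*, *atp5f1d*, *atp5g2*, *atp5h*, *cox6a1*, *cox8a*, *cox11*, *ndufb3*, *ndufb9* and *ndufc2*, with *ndufc2* farthest at 2.53 below. Without this pool, 40 members were above 0 and 24 below, and the median log2 FC of the members was 0.09. That of complex I was then 0.02, that of complex II -0.13 and that of ATP synthase 0.23.

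**Figure D5:**
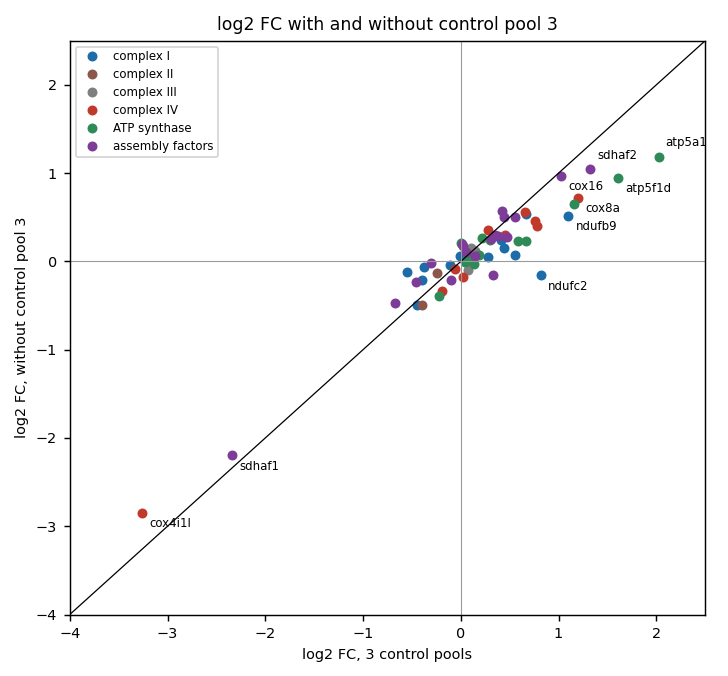
log2 FC of each of 63 genes with all 3 control pools (horizontal axis) and without control pool 3 (vertical axis), AQUOLIVE® over control; the diagonal marks equal values. *Atp5a1* moves from 2.02 to 1.18, *ndufc2* from 0.82 to -0.16 and *cox16* from 1.03 to 0.97.

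Genes of the same pathway outside the symbol rule were counted in the same way. Of 35 further assembly and maturation factors, 23 were on the array and kept, 15 of them higher and 8 lower, and their median log2 FC was 0.22. Past the threshold of the methods were 2 of the 23, both higher and both factors of complex IV. Over all kept probes, 5.22% were past it in that direction. *Coa3a*, which stabilizes a newly made core subunit, had 8.67, 8.34 and 6.69 in the control pools and 10.21, 9.64 and 9.98 with AQUOLIVE®, a log2 FC of 2.05. *Cmc2* had 5.90, 6.14 and 4.65 against 7.49, 7.44 and 7.12, a log2 FC of 1.79. Each of the 2 probes was well above background in only 2 of 3 control pools, so neither size is exact. Control pool 3 was the lowest pool for both. Of 33 genes of electron entry, ubiquinone synthesis and carriers, 15 were kept. Of these, 6 were higher and 9 lower, and the median was -0.15. There *aifm1*, a flavoprotein needed to import respiratory subunits, was past that threshold with 9.78, 9.24 and 8.57 against 10.39, 10.53 and 10.59, a log2 FC of 1.31. It was the 1 gene of the 15 past it, beside the same 5.22% of all kept probes. Of 20 genes of mitochondrial biogenesis and mitochondrial DNA, 5 were kept, 3 higher and 2 lower, with a median of 0.03. No gene of these lists passed the adjusted limma test.

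Markers of the cells of the HK were read beside these values. Of 4 interrenal markers on the array, *star* and *hsd3b1* were well above background on every array but had no value in AQUOLIVE® pool 2. Over the other pools their log2 FC were 0.19 and -0.09. *Fdx1b* ranged from 9.70 to 11.76 in the control pools, lowest in control pool 3, and from 10.57 to 12.06 with AQUOLIVE®, and *cyp17a1* was not kept. In addition, 5 kidney tubule markers were on the array and 0 were kept. Of 7 neutrophil markers 3 were higher and 4 lower. For the 6 measured in every pool, the log2 of the summed signal was 16.98 to 17.22 in the control pools and 16.70 to 17.20 with AQUOLIVE®. The brightest markers weigh most in such a sum. This sum leaves out *mpx*, which had no value in control pool 3. Of the 3 erythrocyte markers, the 2 measured in every pool were *alas2* (log2 FC -0.18) and *tfr1a* (0.03), both with overlapping diets. The log2 of the summed signal of these 2 was 15.46 to 15.97 in the control pools and 15.46 to 15.74 with AQUOLIVE®. *Hba*, not among these since it had no value in AQUOLIVE® pool 2, had a log2 FC of 0.90, past the threshold of the methods. The macrophage marker *cd68* (14.26 to 15.17 against 13.71 to 13.91) and the neutrophil marker *mpx* were past it in the lower direction. Over all kept probes, 5.22% were past it in the higher and 3.83% in the lower direction. The 2 markers each of T cells (log2 of the summed signal 7.98 to 9.58 against 9.57 to 9.74) and B cells (11.94 to 13.08 against 12.61 to 12.77) had none past it. The same held for thrombocytes (12.04 to 12.44 against 11.69 to 11.85) and chromaffin cells (6.26 to 6.93 against 5.49 to 6.26). Control pool 3 was the lowest pool for both T cell and both B cell markers. The T cell marker *cd3e* was well above background in only 2 of 3 control pools. Both chromaffin markers, *pnmt* and *th*, were so in only 2 of 3 pools of each diet, so these levels are not exact. The 2 skeletal muscle markers were in both diets highest in pool 3. The log2 of their summed signal was 10.63 to 13 in the control pools and 8.85 to 11.73 with AQUOLIVE®. The part of these cell types in the values of the oxidative phosphorylation genes was not tested.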

How the data were processed

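HK RNA of 3 control and 3 AQUOLIVE® pools was labeled with Cy3 and hybridized to Agilent salmon arrays. The authors scanned the arrays and deposited Feature Extraction output (version 10.7.3.1 per the file headers), with a background-subtracted intensity for each spot and flags for outlier spots, saturation and signal above background. The log2 values that the authors also deposited equaled the log2 of that intensity, within 1e-08, with no scaling between arrays. The STARS output named in the methods was not used here.

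For the values reported here, the processed signal of the same output, and not the background-subtracted intensity, was log2-transformed. This was done with R 4.3.3 after control and outlier spots had been removed. Of 42386 probes, 25826 were flagged above background on 3 or more of 6 arrays and kept. Robust loess (span 0.3, 4 iterations) then removed the intensity trend from each array's log2 ratio to the control mean, because the methods state Lowess without a span, and replicate spots were averaged. Differences between diets were fitted in limma 3.58.1 (lmFit, eBayes; two-sided) with Benjamini-Hochberg adjustment over all kept probes and a threshold of 0.05. The threshold of the methods was the unpaired test at an unadjusted p under 0.05, to which an absolute log2 FC of at least 0.8, the lower end of the intervals the study shows and not part of its methods, was added. The procedure was run on simulated data with the same spread in both diets. The control pools here had the wider spread, so that run does not cover this difference.

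Of the probes, 40933 carried an accession, 25641 were found in the RefSeq gene table of the salmon and 8155 had a symbol; the others were not named. One member is counted but is otherwise not reported here, in the text or in the plots by gene. The brightest kept probe stood for a gene, and signal was not compared between probes. Members, gene lists and cell markers were chosen with earlier results of these data known. Named by rule were, per complex and for the assembly factors, the genes of highest and lowest log2 FC and the brightest one, the members past a threshold, and the copies that differed most. Lists of further assembly factors, of electron entry and carriers, of biogenesis, and of markers of interrenal, chromaffin, erythrocyte, B, T, neutrophil, macrophage, thrombocyte, kidney tubule and muscle cells were read by counts. Alternatives were 75th percentile scaling, quantile normalization, loess to all arrays, normexp (on the median signal, offset 50), other filters on dim and outlier spots, the deposited values, array weights, the mean of all probes of a symbol, a replicate block and leaving out each pool.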

Additional observations from a re-analysis of the deposited data

How the results depend on the processing

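No member passed limma with Benjamini-Hochberg adjustment under any of the 18 alternatives, while between 0 and 97 of all kept probes did, against 4 as reported. The limma count over all probes was 29 with 75th percentile scaling, 2 with quantile normalization, 7 with normexp, 30 when signal above background was asked on all 6 arrays, 1 with no filter, 0 with the deposited values, 1 with these median-centered, and 97 with array weights. Members past the threshold of the methods numbered 5 with 75th percentile scaling (*atp5a1*, *atp5f1d* and *atp5g2* joined), 11 with the deposited values and 1 with these median-centered. *Cox16* was not past it with normexp (0.62) or with the median-centered values (0.77), and *sdhaf2* was not with the latter (0.65) or with the block; their limma adjusted p ranged from 0.0877 to 0.586 and from 0.0839 to 0.646. All kept probes past it numbered 2336 of 25826 as reported, 2314 with 75th percentile scaling and 2557 with the deposited values. They numbered 692 with normexp, 1124 above background on all arrays and 1488 with the median-centered values. Of these calls 57.7% were higher as reported, 69.4% with 75th percentile scaling, 82.4% with normexp, 98.9% with the deposited values and 73.1% after median-centering. The deposited values are not scaled and the median log2 FC of all probes in them was 0.98; there the medians were 1.17 for all members, 1.15, 0.45, 1.22 and 1.32 for complexes I to IV, 1.32 for ATP synthase and 1.34 for the assembly factors. Members apart upwards numbered 52 and downwards 0 there, and 11 and 1 after median-centering, where complex II was at -0.54 and ATP synthase at 0.32. Members apart downwards numbered 2 with 75th percentile scaling and 2 with normexp. The share of all probes that was apart was not counted in the alternatives, so these counts have no background beside them. With 75th percentile scaling the median was 0.074 for all members, 0.027 for complex I and 0.0091 for complex III, and 40 members were above 0. Normexp gave medians of 0.31 for all members, 0.35 for complex I and 0.53 for ATP synthase, which was at 0.45 with quantile normalization. Members above the median of all probes numbered between 38 and 48 of 64 in every setting run.

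The genes named by rule whose direction turned were *atp5f1c* (0.19 with normexp, 0.93 with the deposited values), *ndufa3* (0.67) and *sdhc* (0.29) with the deposited values, *sdhb* (-0.095 after median-centering), *cox4i1* (-0.0094 with outlier spots kept, -0.13 with array weights) and *uqcr11* (-0.15 with array weights). Except for the unscaled values, the cause was not tested. Leaving out each pool in turn gave 2 to 4 members past the threshold of the methods, 0 to 60 limma calls and 1132 to 2518 calls at that threshold over all probes, 20 to 35 members apart upwards and 4 to 9 downwards. Fewer pools separate more easily, so these last counts cannot be set beside those of all pools. With a pool left out, the medians ranged from 0.094 to 0.28 for all members, from -0.37 to -0.13 for complex II, from 0.039 to 0.28 for complex III and from 0.18 to 0.33 for ATP synthase, and *uqcr11* ranged from -0.094 to 0.34 and *cox4i1* from -0.17 to 0.23. The pool numbers were not treated as pairs. The deviations of pools with the same number correlated at 0.21, -0.06 and 0.03. Pools of unlike number were not compared, so these values cannot decide whether the numbers pair the diets. With the replicate block, 1 member and 1381 probes were past the threshold of the methods and 0 probes passed limma. With 3 pools per diet and a median SE of 0.25 (log2), differences of the size of the members' median log2 FC were not detectable for single genes. Over all 64 members, 34 turned direction in 1 or more alternatives and 30 in none, with 16 turned by the unscaled deposited values, 13 after median-centering, 6 with 75th percentile scaling, 6 with normexp and 8 without control pool 3. Other members that turned after median-centering include *atp5g3* (-0.48) and *atp5mc3b* (-0.04), and with normexp *atp5g3* (-0.22) and *cox10* (-0.16).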
